A study of Rattus norvegicus with 7 samples.

Results

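The genes described here make nitric oxide, or make the cofactor and the substrate that its synthesis needs. They are the nitric oxide synthases Nos1, Nos2 and Nos3, the tetrahydrobiopterin enzymes Gch1, Pts, Spr and Qdpr, and the arginine enzymes Ass1 and Arg1. All probe sets that the platform annotation gives to these symbols were taken, which gave 27 probe sets for the 9 genes, of 8740 probe sets and 4736 gene symbols on the array. The genes were chosen with their signals on all 7 arrays known, so their values are given as a description and without a test.

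Primary cultures of neurons and of astrocytes were made from the hippocampus of Wistar rats, labelled as 17 days old without saying whether before or after birth. The neurons received 0, 1 or 10 µg/ml and the astrocytes 0, 1, 10 or 100 µg/ml of grape seed extract, which is rich in polyphenols, for 24 h. Each of the 7 combinations was measured on 1 Affymetrix array, so single-dose values carry no error, and nothing in the labels says how many animals or cultures each array stands for. All cultures, untreated ones included, were kept in DMEM with glutamine, N1 supplement, penicillin and streptomycin.

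Nitric oxide synthases convert arginine to citrulline and nitric oxide and work as dimers that hold tetrahydrobiopterin. Nos1 is the synthase of neurons, Nos3 that of endothelial cells, and Nos2 is the synthase that glia and macrophages induce with inflammatory cytokines. GTP cyclohydrolase, encoded by Gch1, starts and limits tetrahydrobiopterin synthesis, and is induced together with Nos2 in cytokine-treated rodent cells. Argininosuccinate synthase, encoded by Ass1, leads citrulline back towards arginine, while arginase, encoded by Arg1, splits arginine into ornithine and urea.

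The signals are the deposited array intensities, a linear brightness in arbitrary units scaled to the same trimmed mean on every array. A floor of 17.9, the 25th percentile over the 7 arrays, was set before folds were taken, and any fold that rests on a signal under it is given as at least that size. Per-array signals are listed by rising dose, 0, 1 and 10 µg/ml for neurons and 0, 1, 10 and 100 µg/ml for astrocytes. The median log2 change over the probe sets with signal in astrocytes was -0.01, -0.10 and -0.26 at 1, 10 and 100 µg/ml, against untreated astrocytes. Changes relative to that median are given where they matter. Probe sets differ in how strongly they bind, so signals are compared between arrays and never between probe sets. All changes within a cell type share the same untreated array, and in whole cultures fewer cells of a type and less RNA per cell cannot be told apart.

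In astrocytes the extract went with higher signal for the inducible synthase and for the first pterin enzyme, at 10 and at 100 µg/ml, and for Ass1 at 100 µg/ml. Gch1 was 9.61-fold higher at 10 µg/ml and 10.3-fold higher at 100 µg/ml than in untreated astrocytes. Nos2 was 2.66-fold and 4.78-fold higher at those doses by its brightest probe set, and by another it was at least 9.59-fold higher at 10 µg/ml and at least 43.8-fold higher at 100 µg/ml. The enzymes that follow Gch1 stayed within 2-fold at their brightest probe sets, with Spr at 100 µg/ml nearest to that limit on the lower side. In neurons, no gene among the 9 was 2-fold higher at 1 or 10 µg/ml.

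**Figure D1:**
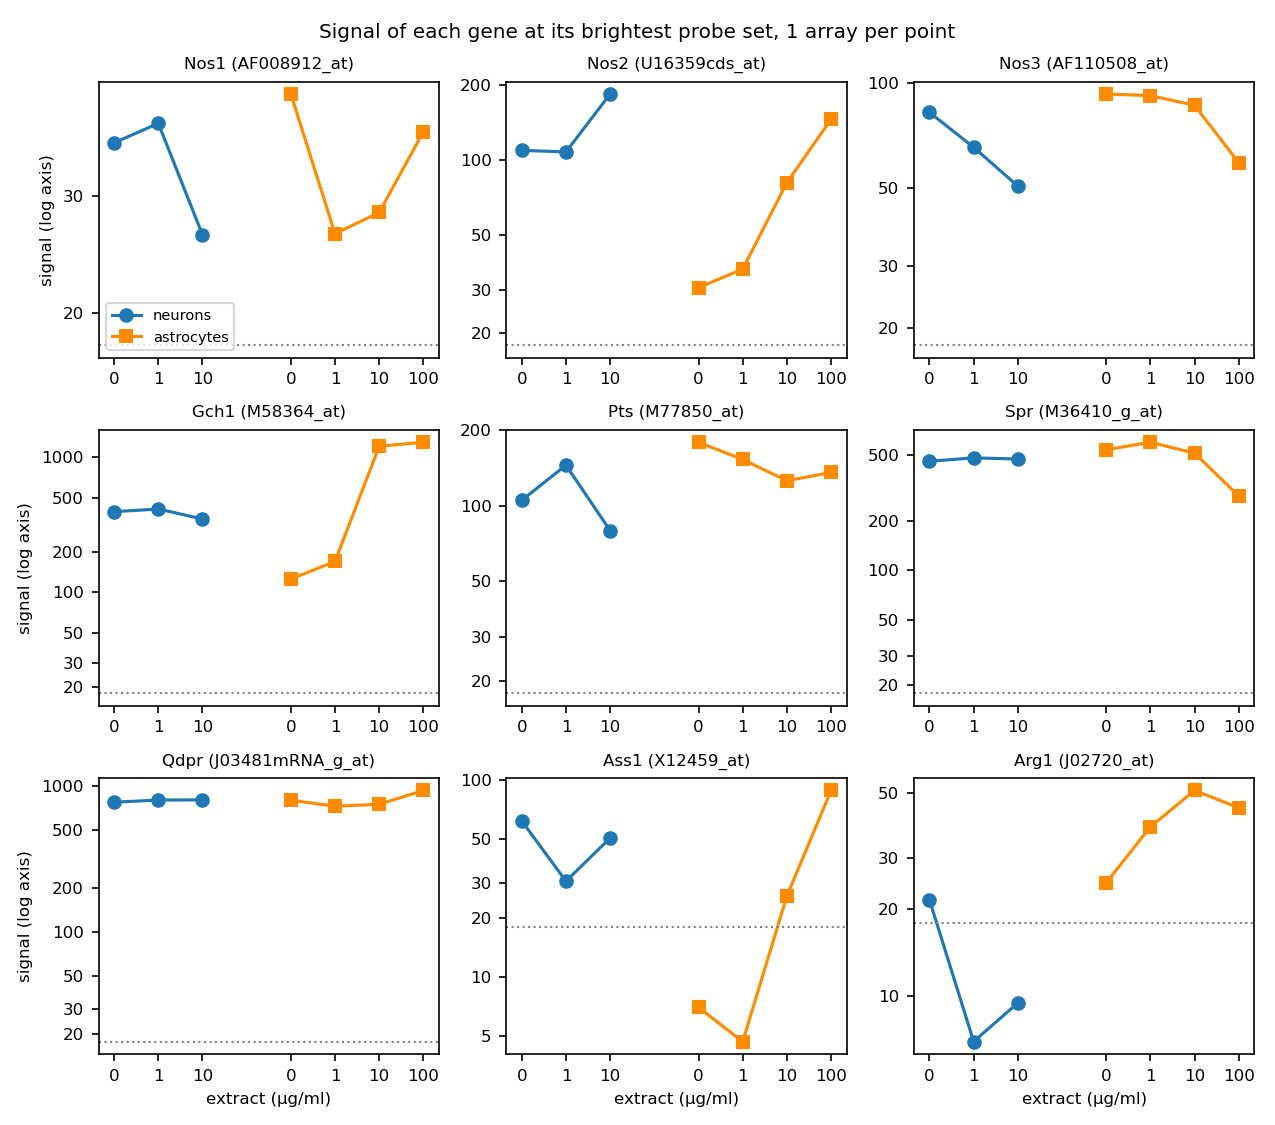
Signal (arbitrary units, log axis that differs between panels) of each gene at its brightest probe set against the dose of extract (µg/ml), with neurons as circles and astrocytes as squares, 1 array per point, and the floor of 17.9 as a dotted line. The astrocyte points of Gch1 lie at 125.1 and 169.2 at 0 and 1 µg/ml and at 1202.5 and 1286.4 at 10 and 100 µg/ml, while the 3 neuron points lie between 348.3 and 412.8.

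Counted by brightest probe set, 3 of the 9 genes (Nos2, Gch1 and Arg1) were at least 2-fold higher and 0 were lower in astrocytes at 10 µg/ml, where 3.54% of all 8740 probe sets were higher and 4.79% lower. At 100 µg/ml 3 genes (Nos2, Gch1 and Ass1) were higher and 0 lower, against 6.06% of all probe sets higher and 14.6% lower. At 1 µg/ml no gene was 2-fold higher or lower, where 2.00% of all probe sets were higher and 3.33% lower. In neurons, Ass1 was 2-fold lower at 1 µg/ml, where 2.15% were higher and 1.91% lower, and no gene passed 2-fold at 10 µg/ml, where 1.78% were higher and 2.30% lower. The genes were chosen on these contrasts, so these counts say nothing about them beyond what chose them.

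Many of the 8740 probe sets are dim, and among the 4252 with a mean signal in astrocytes above the median of all signals (79.9) the shares differ. There 1.03% were higher and 0.964% lower at 1 µg/ml. The shares at 10 µg/ml were 4.30% and 2.21%, and those at 100 µg/ml 6.63% and 19.0%. Among the 4453 that met this in neurons, 0.269% were higher and 0.292% lower at 1 µg/ml, while 0.292% were higher and 0.472% lower at 10 µg/ml. Of the genes counted above, the brightest probe set of Gch1 belongs to the astrocyte set, while those of Nos2, Ass1 and Arg1 do not, and that of Ass1 is not in the neuron set.

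Of the 27 probe sets, 7 had a mean signal above that limit in neurons, 7 in astrocytes, 9 in at least 1 cell type and 18 in neither. The brightest probe sets of Nos1, Ass1 and Arg1 are among the 18. A gene symbol alone was annotated to 23 of the 27, and 4 carried a pseudogene symbol as well.

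Gch1 turns GTP into the first pterin of the pathway. Its brightest probe set, M58364_at, had signals of 394.4, 412.8 and 348.3 in neurons. In astrocytes the signals were 125.1, 169.2, 1202.5 and 1286.4. The astrocyte arrays thus lay on both sides of all neuron arrays, below them at 0 and 1 µg/ml and above them at 10 and 100 µg/ml.

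The log2 change of this probe set against untreated astrocytes was 3.26 at the dose of 10 µg/ml and 3.36 at the dose of 100 µg/ml, the last being 3.62 relative to the median change. At 1 µg/ml astrocytes were 1.35-fold higher. The array at 100 µg/ml was 1.07-fold higher than that at 10 µg/ml, so nearly all of the difference was in place by 10 µg/ml. Untreated neurons had 3.15-fold more signal than untreated astrocytes.

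A second Gch1 probe set, E03424cds_s_at, gave 70.7, 75.9 and 60.1 in neurons and 25.8, 24.9, 116.7 and 162.1 in astrocytes. It was 4.52-fold higher at 10 µg/ml and 6.28-fold higher at 100 µg/ml than in untreated astrocytes, and 2.74-fold higher in untreated neurons than in untreated astrocytes. The other two Gch1 probe sets did not show this. rc_AI043643_at lay between 41.5 and 61.0 in neurons and between 45.5 and 70.4 in astrocytes, and rc_AA943102_s_at was below the floor on all 7 arrays.

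Promoter windows of 250 bases before the start of transcription are shown for the members whose astrocyte signal moved most and for which RefSeq has a promoter entry, read from RefSeq on the GRCr8 build. They were searched on both strands for NF-kB, by name, and for ISRE (GAAANNGAA), GAS (TTCNNNGAA), AP-1 (TGANTCA), CRE (TGACGTCA) and C/EBP (TTGCNNAA), the binding motifs of transcription factors that act downstream of cytokines, stress and cyclic AMP. Entries were found for 7 of the 9 genes, those other than Nos2 and Arg1. Capitals mark motif matches. Gch1 lies on the minus strand at chr15:22917413-22917662, Spr on the minus strand at chr4:119233180-119233429 and Ass1 on the plus strand at chr3:35149480-35149729.
Gch1: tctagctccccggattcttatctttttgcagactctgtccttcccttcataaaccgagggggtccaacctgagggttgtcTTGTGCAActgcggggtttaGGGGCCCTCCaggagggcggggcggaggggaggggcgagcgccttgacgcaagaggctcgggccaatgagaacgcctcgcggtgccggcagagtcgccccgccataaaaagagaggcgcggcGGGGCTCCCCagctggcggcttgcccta
Spr: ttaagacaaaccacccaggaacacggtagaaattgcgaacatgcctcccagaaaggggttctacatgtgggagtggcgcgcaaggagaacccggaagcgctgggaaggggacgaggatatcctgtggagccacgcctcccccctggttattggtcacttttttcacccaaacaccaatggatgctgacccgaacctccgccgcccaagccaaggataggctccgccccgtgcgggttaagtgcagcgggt
Ass1: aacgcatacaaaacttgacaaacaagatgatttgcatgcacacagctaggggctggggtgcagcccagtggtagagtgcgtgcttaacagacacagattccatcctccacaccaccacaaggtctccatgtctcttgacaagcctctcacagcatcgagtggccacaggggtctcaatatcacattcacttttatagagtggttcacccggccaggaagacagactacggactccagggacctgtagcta

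The Gch1 window held NF-kB matches at 150 to 141 and at 28 to 19 bases before the start, and a C/EBP match at 170 to 163 bases before it. An NF-kB match occurs in 6.33% of the 33469 windows of this length in the table and a C/EBP match in 9.22%. The windows of Spr and Ass1 held none of the motifs searched, which says only that these letters are not in these windows. Of the windows not shown, that of Nos1 held AP-1 and CRE matches and that of Pts ISRE and GAS matches. The window of Qdpr held GAS and C/EBP matches, and that of Nos3 none. Over all windows, AP-1 occurs in 6.34%, CRE in 1.59%, ISRE in 8.12% and GAS in 7.67%. Matches were thus also found in genes that did not rise. The Gch1 window is 64.4% G and C with 19 CpG, that of Spr 58.4% with 15, and that of Ass1 51.2% with 5, where the median window has 51.2% and 5. A match is a description of the letters and not a site of binding.

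The enzymes after Gch1 moved less. Pts, the 6-pyruvoyl-tetrahydropterin synthase that acts second, had signals of 105.3, 145.2 and 79.7 in neurons and 179.2, 153.1, 125.9 and 135.8 in astrocytes. The cell types overlapped, and the log2 change at 100 µg/ml was -0.40, or -0.14 relative to the median change.

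Spr, the sepiapterin reductase that completes tetrahydrobiopterin, had signals of 459.9, 482.0 and 474.6 in neurons at its brightest probe set, M36410_g_at. In astrocytes they were 540.5, 599.7, 515.6 and 283.1. The array at 100 µg/ml was the lowest of all 7 and 1.91-fold lower than untreated astrocytes, a log2 change of -0.93, or -0.67 relative to the median change. The dimmer M36410_at, annotated to the pseudogene Spr-ps1 as well, gave 63.4, 63.6 and 73.9 in neurons and 106.6, 117.8, 33.5 and 10.9 in astrocytes. It was 3.18-fold lower at 10 µg/ml and at least 5.96-fold lower at 100 µg/ml than in untreated astrocytes, and its signal from Spr and from the pseudogene cannot be told apart.

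Qdpr, the dihydropteridine reductase that regenerates the spent cofactor, was the steadiest of the 9 genes. Its brightest probe set, J03481mRNA_g_at, lay between 779.7 and 808.7 in neurons and between 731.0 and 937.7 in astrocytes, highest at 100 µg/ml. The second, J03481mRNA_at, lay between 181.7 and 219.1 in neurons and between 183.9 and 207.0 in astrocytes.

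Nos2 is covered by 7 probe sets, of which 3 are annotated to the pseudogene Nos2-ps1 as well. The brightest, U16359cds_at, had signals of 109.3, 107.8 and 184.5 in neurons. In astrocytes it had 30.5, 36.3, 81.0 and 145.8. Only the array at 100 µg/ml reached into the neuron range, and the neuron array at 10 µg/ml was the highest of all.

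The log2 change of this probe set against untreated astrocytes was 1.41 at the dose of 10 µg/ml and 2.26 at the dose of 100 µg/ml, the last being 2.52 relative to the median change. The array at 100 µg/ml was 1.80-fold higher than that at 10 µg/ml. Untreated neurons had 3.58-fold more signal than untreated astrocytes.

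U03699complete_seq_at, annotated to Nos2 alone, had signals of 31.9, 41.7 and 27.9 in neurons and of 11.6, 28.3, 171.7 and 784.1 in astrocytes. The astrocyte arrays at 10 and 100 µg/ml stood above all other arrays, and the untreated astrocyte array was below the floor. The log2 change at 100 µg/ml was at least 5.45, the largest of any of the 27 probe sets, and that array was 4.57-fold higher than the one at 10 µg/ml. The same probe set put untreated neurons above untreated astrocytes, and treated astrocytes at 10 µg/ml above every neuron array.

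The other five Nos2 probe sets disagreed with one another. D83661_s_at, shared with the pseudogene, had 46.2, 19.6 and 29.7 in neurons and 18.1, 26.8, 42.9 and 107.1 in astrocytes, and was 2.37-fold higher at 10 µg/ml and 5.92-fold higher at 100 µg/ml than in untreated astrocytes. D44591_s_at, also shared, was below the floor on all arrays but that of astrocytes at 100 µg/ml, where it was 114.9 and at least 6.42-fold higher. S71597_s_at had 31.7, 30.6, 34.3 and 60.2 in astrocytes and 1.90-fold more signal at 100 µg/ml than in untreated astrocytes, while its neuron signals of 7.5 to 12.3 were all below the floor.

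U48829_s_at, the last shared one, had 25.4, 30.8 and 28.5 in neurons and 31.7, 5.3, 32.3 and 37.9 in astrocytes, and AF006619_s_at was below the floor on all 7 arrays. In all, 4 of the 7 probe sets were at least 2-fold higher in astrocytes at 100 µg/ml than in untreated astrocytes. Among these 4, D83661_s_at and D44591_s_at are shared with the pseudogene.

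**Figure D2:**
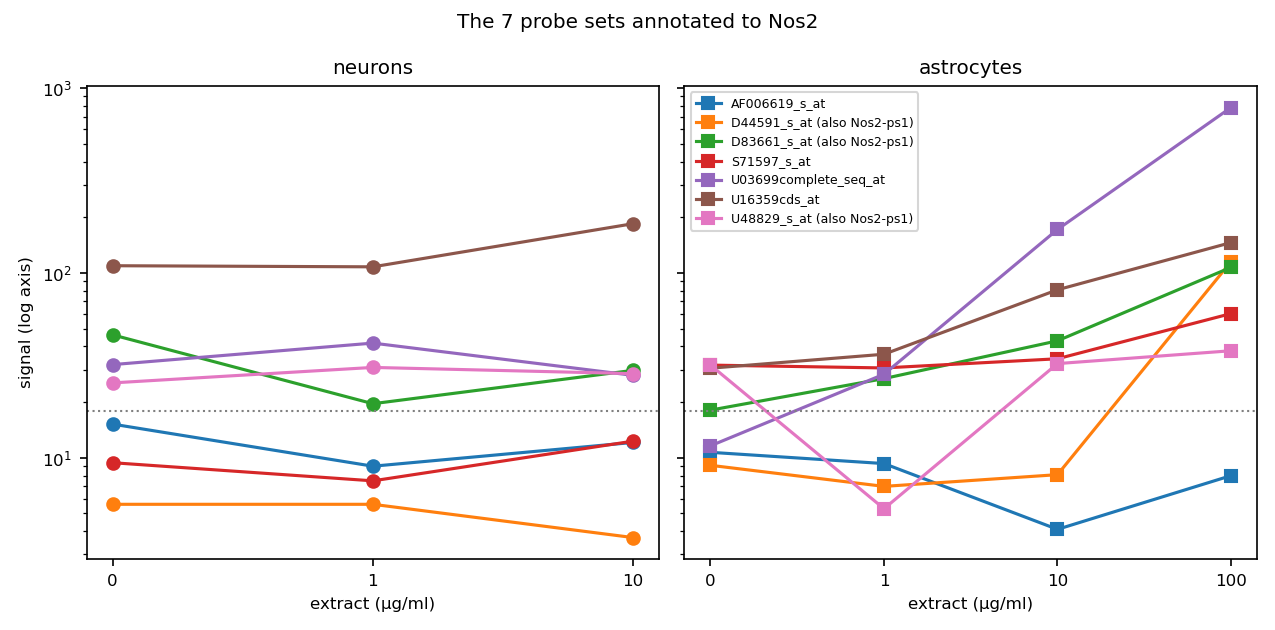
Signal (arbitrary units, log axis) of the 7 probe sets annotated to Nos2 against the dose of extract (µg/ml), in neurons (left, circles) and astrocytes (right, squares), 1 array per point, with the floor of 17.9 dotted. U03699complete_seq_at climbs to 784.1 in astrocytes at 100 µg/ml and stays between 27.9 and 41.7 in neurons. U16359cds_at reaches 184.5 in neurons at 10 µg/ml and 145.8 in astrocytes at 100 µg/ml.

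Nos1, the synthase of neurons, was dim in both cell types. Its brightest probe set, AF008912_at, had 36.0, 38.5 and 26.2 in neurons and 42.6, 26.3, 28.3 and 37.4 in astrocytes, so the cell types overlapped and no dose changed it 2-fold. U67309_at lay between 14.5 and 21.3 on the 7 arrays, and X59949cds_s_at was below the floor on all of them. No Nos1 probe set separated the neuron arrays from the astrocyte arrays.

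Nos3, the endothelial synthase, is covered by 6 probe sets. The brightest, AF110508_at, had 82.4, 65.5 and 50.8 in neurons and 92.9, 92.0, 86.3 and 59.2 in astrocytes. Both series were lowest at their highest dose, with a log2 change of -0.65 in astrocytes at 100 µg/ml, or -0.39 relative to the median change.

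Another Nos3 probe set, AJ011115_g_at, had 95.0, 99.0 and 101.0 in neurons and 96.0, 47.9, 40.9 and 17.9 in astrocytes. Its 3 treated astrocyte arrays lay below the untreated one and below every neuron array, by 2.00-fold, 2.35-fold and at least 5.36-fold against untreated astrocytes. U02534_at lay between 43.7 and 53.5 in neurons and between 47.4 and 73.1 in astrocytes, and the other three Nos3 probe sets were at 21.7 or less on every array. At all 3 brighter Nos3 probe sets every treated astrocyte array was lower than the untreated one, by amounts that differed between the probe sets.

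Ass1, the synthase that rebuilds arginine from citrulline, has a single probe set, X12459_at. It had 61.8, 30.6 and 50.7 in neurons and 7.0, 4.7, 25.7 and 88.3 in astrocytes. Astrocytes were below the floor at 0 and 1 µg/ml, and the array at 100 µg/ml was the highest of the 7. Astrocytes were at least 1.44-fold higher at 10 µg/ml and at least 4.93-fold higher at 100 µg/ml than untreated astrocytes, and the array at 100 µg/ml was 3.44-fold higher than that at 10 µg/ml. Untreated neurons were at least 3.45-fold higher than untreated astrocytes. Neurons at 1 µg/ml were 2.02-fold lower than untreated neurons, and neurons at 10 µg/ml lay between them.

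Arg1, the arginase that competes for arginine, has a single probe set too, J02720_at. It had 21.5, 7.0 and 9.5 in neurons and 24.6, 38.3, 51.1 and 44.6 in astrocytes. All neuron arrays lay below all astrocyte arrays, and both treated neuron arrays were below the floor. Against untreated astrocytes it was 1.56-fold, 2.08-fold and 1.81-fold higher at 1, 10 and 100 µg/ml, and the log2 change at 100 µg/ml was 1.12 relative to the median change.

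**Figure D3:**
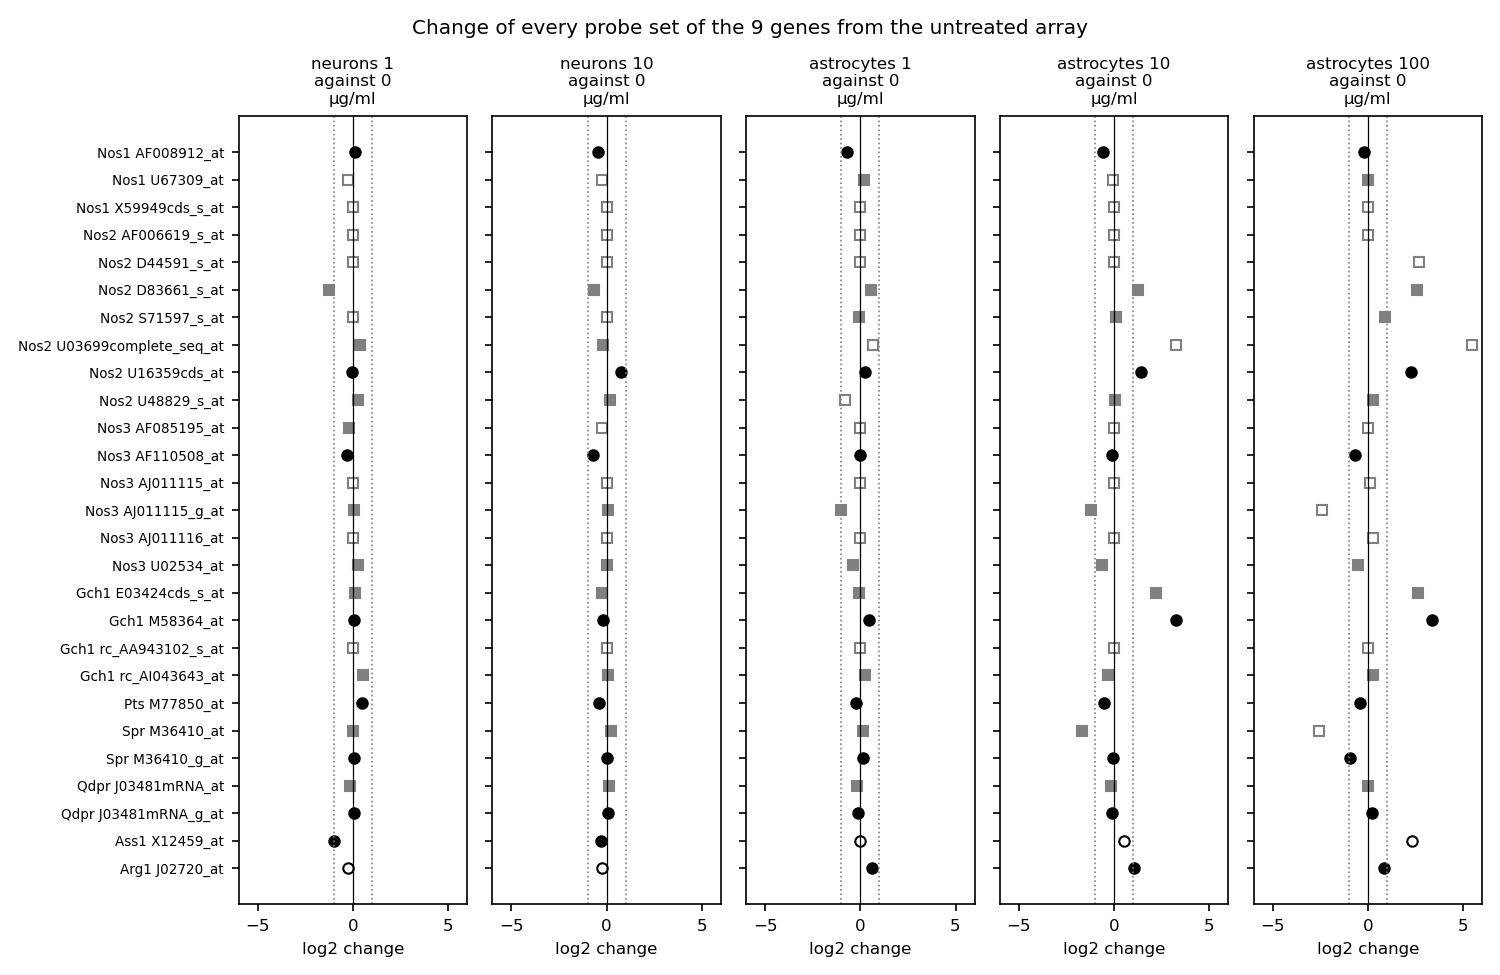
Log2 change of each of the 27 probe sets against untreated cells of the same type, in 5 panels by cell type and dose, with the brightest probe set of each gene as a circle and the others as squares, open where the floor sets a bound, and 2-fold marked by dotted lines. In astrocytes at 100 µg/ml 7 probe sets lie at or beyond 2-fold higher and 2 at or beyond 2-fold lower, and in neurons at 10 µg/ml all 27 lie within 2-fold.

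Over all 27 probe sets in astrocytes at 1 µg/ml, none was 2-fold higher and 1 was lower. Of all 8740, 2.00% were higher and 3.33% lower there. At 10 µg/ml 6 were at least 2-fold higher and 2 lower, against 3.54% and 4.79%. At 100 µg/ml 7 were higher and 2 lower, against 6.06% and 14.6%. The probe sets that were higher in astrocytes belong to Nos2, Gch1, Ass1 and Arg1, and those that were lower to Nos3 and Spr. In neurons at 1 µg/ml 0 were higher and 2 lower, against 2.15% and 1.91%. These 2 were D83661_s_at of Nos2, 2.36-fold lower, and that of Ass1. In neurons at 10 µg/ml none passed 2-fold, against 1.78% and 2.30%. Between cell types, 0 of the 27 had all neuron arrays above all astrocyte arrays and 2 had them all below, S71597_s_at of Nos2 and that of Arg1. Of all 8740 probe sets, 17.7% had all neuron arrays higher and 10.6% all lower, and of the 4709 above the limit in either cell type, which do not include these 2, the shares were 28.4% and 16.8%. The astrocyte signals of Gch1, Nos2 and Ass1 changed so much with dose that their order against neurons depends on the dose compared.

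Other genes of arginine, pterin and nitric oxide biology, with inducers of Nos2 or Gch1, came from a list of 70. Of these, 42 had a probe set with a single symbol and 26 had signal in astrocytes. At 10 µg/ml 7 of the 26 exceeded untreated astrocytes at least 2-fold and 0 were as much lower, with a median log2 change of 0.08, where 4.30% of the 4252 probe sets with such signal were higher and 2.21% lower. Of these 7, 5 were inducers, and the rest were Slc7a1 and Cbr1. At 100 µg/ml 5 were higher and 3 lower, with a median of 0.01, against 6.63% of probe sets higher and 19.0% lower. Of these 5, 3 were inducers, and the rest were Slc7a1 and Odc1. None of the lower ones was an inducer. Relative to the median change of all probe sets 7 of the 26 were higher at 100 µg/ml and 0 lower. At 1 µg/ml none passed 2-fold either way. None of the 32 with signal in neurons passed 2-fold at 1 or 10 µg/ml.

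The list holds 9 cytokines and transcription factors that induce Nos2, of which 6 had signal in astrocytes. Tnf, the tumour necrosis factor, had 33.5, 6.2, 72.4 and 1464.8 in astrocytes, and was 43.7-fold higher at 100 µg/ml than in untreated astrocytes. Its signals at the lower doses were under the limit of 79.9. Tnf thus entered the counts of genes with signal only through the array where it was high. Cebpb, a transcription factor of the acute phase, had 246.1, 367.0, 1445.4 and 3790.4 and was 15.4-fold higher at 100 µg/ml. Il1b, the cytokine interleukin 1 beta, had 1419.7, 1701.0, 5766.3 and 12448.4 and was 8.77-fold higher at 100 µg/ml. These 3 were highest at the highest dose, as were Nos2 and Ass1.

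Irf1 and Nfkb1 followed another order. Irf1, an interferon-induced transcription factor, had 2430.6, 3305.3, 12761 and 4719.7 in astrocytes, and was 5.25-fold higher at 10 µg/ml than in untreated astrocytes. Nfkb1, a subunit of NF-kB, had 2156.7, 2098.8, 5533.8 and 4095.9 and was 2.57-fold higher at 10 µg/ml. Both were higher at 10 than at 100 µg/ml, whereas the signals of Gch1 at these doses were nearly equal. Of the 6 inducers with signal in astrocytes, 5 were 2-fold higher at 10 µg/ml and 3 at 100 µg/ml, where 4.30% and 6.63% of probe sets were, with median log2 changes of 1.69 and 2.04. The list was chosen with these results known.

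**Figure D4:**
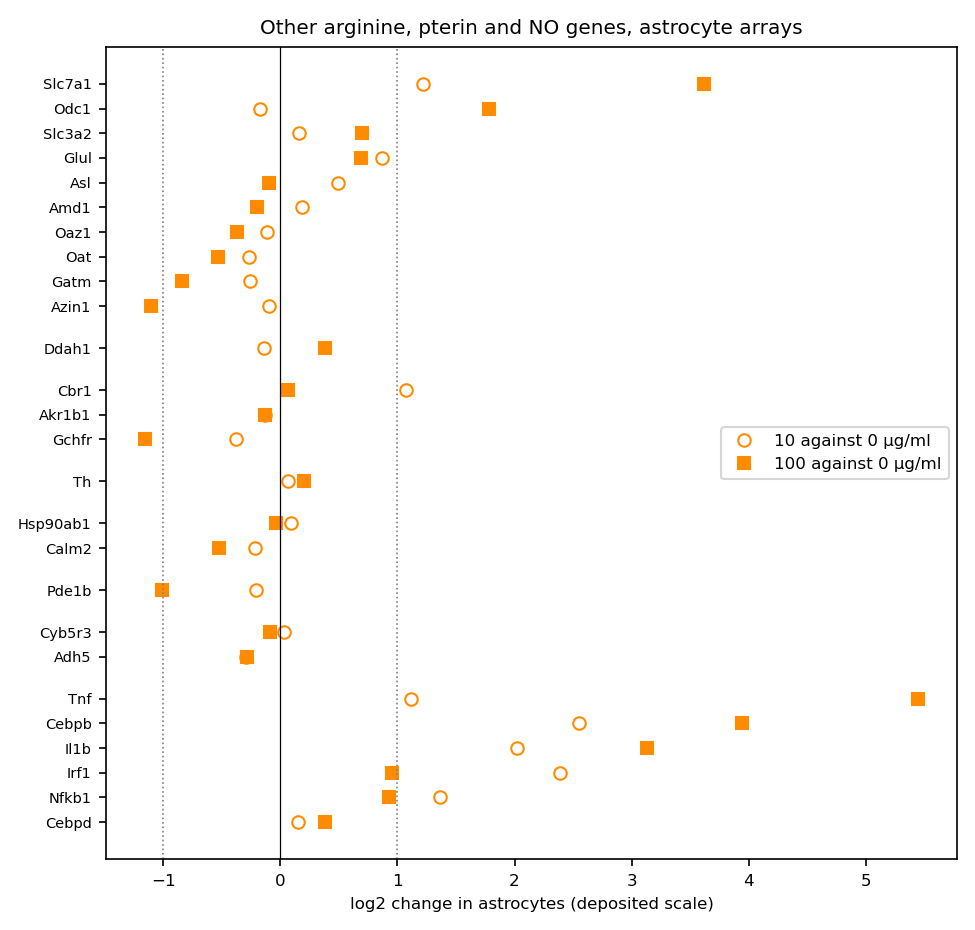
Log2 change of the 26 listed arginine, pterin, nitric oxide and inducer genes with signal in astrocytes, at 10 µg/ml (open circles) and 100 µg/ml (filled squares) against untreated astrocytes, grouped by role, with 2-fold marked by dotted lines and 1 array per dose. The 100 µg/ml squares of Tnf, Cebpb, Slc7a1, Il1b and Odc1 lie beyond 2-fold higher, and those of Gchfr, Azin1 and Pde1b beyond 2-fold lower.

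Slc7a1, the cationic amino acid transporter that brings arginine into cells, had 309.3, 291.0 and 274.1 in neurons and 86.5, 85.3, 201.3 and 1063.9 in astrocytes, at its brightest probe set. It was 2.33-fold higher at 10 µg/ml and 12.3-fold higher at 100 µg/ml than in untreated astrocytes, a log2 change of 3.62 at 100 µg/ml. Its other probe sets disagreed: at 100 µg/ml U70476_at was 3.33-fold higher and L10152_s_at 1.44-fold lower than in untreated astrocytes. The mean over the 3 probe sets had log2 changes of -0.039 at 10 µg/ml and 1.61 at 100 µg/ml. Slc7a2, a related transporter, was below the signal limit and is named after its values were seen: it had 26.8, 19.9, 29.4 and 205.3 in astrocytes and was 7.66-fold higher at 100 µg/ml.

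Arginase leads to ornithine, which Odc1, ornithine decarboxylase, turns into polyamines. Odc1 had 1433.9, 1058.5, 1268.8 and 4929.4 in astrocytes and was 3.44-fold higher at 100 µg/ml than in untreated astrocytes. Azin1, which protects Odc1 from its antizymes, had 1000.9, 987.9, 933.8 and 465.6 and was 2.15-fold lower at 100 µg/ml. Neither passed 2-fold at a lower dose.

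On the pterin side, Gchfr encodes the protein that lets tetrahydrobiopterin feed back on GTP cyclohydrolase. It had 94.9, 121.1 and 106.1 in neurons and 129.4, 99.1, 99.4 and 58.0 in astrocytes, and was 2.23-fold lower at 100 µg/ml than in untreated astrocytes, a log2 change of -0.90 relative to the median change. Cbr1, a carbonyl reductase that can act on the same intermediates as Spr, had 457.2, 798.8, 960.8 and 477.4 in astrocytes at its brightest probe set and was 2.10-fold higher at 10 µg/ml. Its other probe set had 584.1, 457.3, 595.3 and 379.7 and did not show that. Pde1b, a phosphodiesterase that splits cyclic GMP, had 103.9, 99.4, 89.8 and 51.6 in astrocytes and was 2.01-fold lower at 100 µg/ml.

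Between the cell types, the 33 listed genes with signal in either were tested with limma over the 3 neuron and 4 astrocyte arrays. The p-values were adjusted by Benjamini-Hochberg over 4709 probe sets. The list was chosen with earlier results of these data known, so these p-values describe the genes and are not independent support. In neurons 9 of the 33 were higher and 4 lower, against 18.0% of all probe sets higher and 12.2% lower, and the median log2 difference was 0.15 for the list and 0.16 for all probe sets. The spread here is that between arrays at different doses, since no combination of cell type and dose was repeated. Of the genes higher in neurons, Nos1ap, Gucy1a1, Gucy1b1, Pde2a, Arg2 and Dlg4 had mean astrocyte signals under the limit of 79.9. They entered only through the neuron arrays, where they were high, so their direction was largely set by how they entered.

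The largest differences in favour of neurons were those of Nos1ap, Gucy1b1 and Gucy1a1. Nos1ap, the adaptor that binds Nos1, had 202.9, 215.7 and 180.1 in neurons and was below the floor on all astrocyte arrays, a log2 difference of at least 3.47 (SE 0.16, limma adjusted p = 3.96e-06). Gucy1b1, a subunit of the guanylate cyclase that nitric oxide activates, had 378.8, 365.1 and 394.8 in neurons and 38.2, 52.9, 46.0 and 35.2 in astrocytes, a difference of 3.16 (SE 0.20, limma adjusted p = 1.86e-05). The other subunit of that cyclase, Gucy1a1, was higher by at least 3.01 (SE 0.20, limma adjusted p = 2.31e-05), with astrocytes below the floor on 3 of 4 arrays. All 3 had every neuron array above every astrocyte array, while Nos1 itself overlapped. The floor makes all astrocyte values of Nos1ap equal, and 3 of 4 of Gucy1a1. The SE and adjusted p of these genes thus leave out spread between those arrays.

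The rest of the genes higher in neurons were Pde2a, which splits cyclic GMP, Ddah1, which breaks down an inhibitor of the synthases, the second arginase Arg2, the synapse scaffold Dlg4, Azin1 and the calmodulin gene Calm2. Ddah1 was higher by 2.41 (limma adjusted p = 1.80e-05) and Arg2 by at least 2.59 (limma adjusted p = 0.00105), with 3 of 3 neuron arrays above all astrocyte arrays for both. Arg2 thus lay higher in neurons, where Arg1 lay lower. Arg1 was below the signal limit in both cell types, though, and untreated cells differed little in it, with 21.5 in neurons and 24.6 in astrocytes.

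Lower in neurons were Gatm, Akr1b1, Adh5 and Cyb5r3. Gatm, which makes a creatine precursor from arginine, had 247.0, 213.3 and 223.6 in neurons and 640.9, 524.1, 534.7 and 357.2 in astrocytes, a log2 difference of -1.15 (SE 0.22, limma adjusted p = 0.00627). Cyb5r3 differed by -0.55 (limma adjusted p = 0.00853) and Adh5, which removes S-nitrosoglutathione, by -0.44 (limma adjusted p = 0.0325). Il1b and Tnf differed by -2.03 and -2.32 without passing (limma adjusted p = 0.0692 and 0.236), and their astrocyte arrays spread widely with dose.

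The cultures were checked against marker lists of the cell types they could hold. All 5 measured neuron markers were higher on every neuron array than on any astrocyte array, with summed signals of 11522.2 to 12097.9 in neurons and 603.9 to 1333.2 in astrocytes. Of 8 astrocyte markers, 4 were lower on all neuron arrays and 2, Slc1a3 and Aqp4, higher, with sums of 50318.4 to 51557.4 in neurons and 55179.4 to 64926.6 in astrocytes. These 2 were also 2-fold lower in astrocytes at 100 µg/ml than in untreated astrocytes, Slc1a3 with 965.6 against 3975.8 and Aqp4 with 254.8 against 567.0, as was 1 neuron marker. The neuron arrays thus also carried astrocyte markers, and signal of the 9 genes in them cannot be given to neurons alone.

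Microglia and macrophages, which make Nos2 and Arg1 in rodents, had 9 of 11 markers measured, with sums of 825.7 to 1194.4 in neurons. Their sums in astrocytes were 5767.3, 6646.6, 7304.3 and 3943.2 at 0, 1, 10 and 100 µg/ml, highest at 10 µg/ml, as was Arg1, and lowest at 100 µg/ml. C1qb gives the largest part of these sums. Single markers went different ways. Fcgr2b had 248.3, 258.0, 617.8 and 1161.7 in astrocytes, highest at 100 µg/ml, as were Nos2, Gch1 and Ass1. Aif1 had 1636.5, 1382.2, 1425.9 and 250.8, and Cx3cr1 had 93.3, 100.0, 51.2 and 28.3, both lowest at 100 µg/ml. None of the 9 was at the floor on all arrays, and Itgam was at it on 3 neuron and 2 astrocyte arrays. At 10 µg/ml 2 of the 9 were 2-fold higher and 0 lower than in untreated astrocytes, and at 100 µg/ml 1 was higher and 2 lower. The part of microglia in the changes of Nos2, Gch1 and Arg1 was not tested.

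Endothelial markers, read for Nos3, were measured for 4 of 8, with sums of 362.2 to 534.5 in neurons and 182.5 to 258.5 in astrocytes, and none changed 2-fold in astrocytes at 10 or 100 µg/ml. Their part in the Nos3 signal was not tested. Oligodendrocyte markers, 5 of 6 measured, summed to 2129.7 to 2268.9 in neurons and 8540.8 to 13747.7 in astrocytes. Pdgfra had 3730.1, 4949.7, 7779.8 and 1231.8 in astrocytes. Against untreated astrocytes it was at least 2-fold higher at 10 µg/ml and at least 2-fold lower at 100 µg/ml. No other of the 5 passed 2-fold at these doses. Mbp went the other way, with 3895.3, 3231.5, 3377.9 and 5222.2. Mag and Mog were also lower at 10 µg/ml than in untreated astrocytes, while Cnp, like Pdgfra, was highest at 10 and lowest at 100 µg/ml. The part of these cells in the results was not tested. Hepatocyte markers, read because liver is rich in Arg1 and Ass1, summed to 81.7 or less in neurons and 86.4 or less in astrocytes over both genes.

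For the 3 genes whose astrocyte signals spanned at least 4-fold at their brightest probe set, the genes with the most similar pattern were found by Pearson's r of log2 signals over the 7 arrays. The arrays share doses and cell types, so any pair of genes that follow these correlates, and the r describes likeness alone. For Gch1 the nearest were Fosl1 (0.97), P2ry2 (0.95), Jak2 (0.95), Nfkbia (0.95) and Ccl2 (0.94). Nfkbia, an inhibitor of NF-kB, had 667.8, 993.4, 4035.6 and 7897.1 in astrocytes.

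For Nos2 at U16359cds_at they were Mapk6 (0.98), Mgp (0.97), Eif4e (0.96), Myc (0.96) and Slc4a7 (0.95). For Ass1 they were Il1r2 (0.996), Vars1 (0.98), Eif2b3 (0.97), Scd (0.97) and Map6 (0.97). Ass1 was below the signal limit in both cell types. Its astrocyte arrays at 0 and 1 µg/ml were raised to the floor before r was taken. Il1r2, the decoy receptor of interleukin 1, had 136.9, 101.4 and 120.9 in neurons and 77.2, 82.0, 90.7 and 158.0 in astrocytes. The 3 lists share no gene, but each rests on 1 probe set of its member. U03699complete_seq_at of Nos2, whose astrocyte arrays at 10 and 100 µg/ml stood above all neuron arrays, was not compared in this way.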

How the data were processed

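RNA from each of the 7 cultures was amplified in a 2-cycle procedure, biotin-labelled and hybridized to 1 Affymetrix rat array, per the labels' protocols. The deposited values are linear signal intensities from the software GCOS, per the submitters' processing notes, whose version is not given in the sources used here. Detection calls were not used here. The authors' scale was kept, with 2%-trimmed means of 500.731 to 500.874.

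The 59 control probe sets were left out, which left 8740 of 8799. Symbols came from the platform annotation, and 6985 of the 7006 probe sets with a single symbol were found in a RefSeq table by gene ID, with 0 changed. There were 308 probe sets with several symbols and 1426 with none. Signals were floored at the 25th percentile (17.9), and between 23.3% and 27.2% of probe sets per array were at the floor. Probe sets entered a comparison if their mean log2 signal in a cell type was above the median of all signals (79.9).

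Treated arrays were set against the untreated array of their cell type without a test, and a 2-fold change was counted. Cell types were compared with limma 3.58.1 (R 4.3.3), using lmFit and eBayes with trend, 5 residual degrees of freedom, two-sided p-values adjusted by Benjamini-Hochberg and a limit of 0.05. In data simulated with 4709 probe sets and noise of SD 0.13, the fit recovered 100 of 100 changes of log2 size 1 and 100 of 100 of size 2, with 10 false calls. That SD is the median over the neuron arrays alone, and no dose effect was simulated. The real fit holds the astrocyte dose changes, with an SE of 0.72 for Il1b and 1.35 for Tnf. The simulation thus checks the code and does not give the power for such genes. Figures were drawn with matplotlib 3.10.9 in Python 3.11.15.

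The members and lists were chosen with earlier results of these data known. Every probe set of the 9 genes was reported. Of the other list, genes at least 2-fold from the untreated array at their brightest probe set were named, at most 12, with the 3 largest limma differences each way, and the 5 genes most like each member that spanned 4-fold in astrocytes. Other listed genes and marker genes were named after their values were seen. Precision is limited by the number of arrays. Alternatives were quantile normalization, centring on the median change, leaving out the floor or the filter, a stricter filter (435.7, the 75th percentile), the mean of a gene's probe sets, the mean of lower doses as baseline, a constant prior, dose as a block and leaving out each array.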

Additional observations from a re-analysis of the deposited data

Results flagged for a closer look

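The 27 probe sets of the 9 genes and the brightest probe sets of the 42 other listed genes were searched for opposite directions. In 7, every treated array of a cell type lay on the same side of its untreated array. Every treated array of the other cell type lay on the opposite side, at whatever size. U02534_at of Nos3 met this rule in neurons with 53.5 and 43.9 against 43.7. The share of all 8740 probe sets that meet it was not counted, so 7 cannot be called many or few. The difference between the cell types was not tested for any of them, and each treated group is compared with a single untreated array. The value given is the log2 change of the treated array farthest from its untreated one. Treated neurons were higher than untreated neurons and treated astrocytes lower than untreated astrocytes for 5 of the 7. For 3 of these the farthest array was of astrocytes: AJ011115_g_at of Nos3 (-2.42 at 100 µg/ml), U02534_at of Nos3 (-0.62 at 10 µg/ml) and Gchfr (-1.16 at 100 µg/ml). Akr1b1 and Pde5a had the same directions, with the largest change in neurons, 0.23 and 0.70, and Pde5a was below the floor in all treated astrocytes. The opposite directions, lower in treated neurons and higher in treated astrocytes, were found for D83661_s_at of Nos2 (2.56 at 100 µg/ml in astrocytes), annotated to the pseudogene as well, and for Arg1 (1.05 at 10 µg/ml in astrocytes), whose treated neuron signals were below the floor.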

How the results depend on the processing

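The 3 genes at least 2-fold higher in astrocytes at 100 µg/ml were 4 when changes were centred on their median or quantile-normalized, Arg1 being added, and the 3 at 10 µg/ml were 2 with the mean of lower doses as baseline, without Arg1, and 4 with no floor, with Ass1. With no floor Arg1 was also 2-fold lower in neurons at both doses. Nos2 and Gch1 were 2-fold higher at both doses under every alternative that gave them a value. Centring moved the split of probe sets in astrocytes at 100 µg/ml, 282 higher and 807 lower, to 400 and 573. The counts of probe sets changed 2-fold depended on the filter. For astrocytes at 1, 10 and 100 µg/ml they were 85, 277 and 1089, with no filter 466, 728 and 1806, and with the stricter one 22, 115 and 416. For neurons at 1 and 10 µg/ml they were 25 and 34, with no filter 355 and 357, with the stricter one 0 and 1, and with lower doses as baseline 22 at 10 µg/ml. The 8 listed genes changed 2-fold in astrocytes at 100 µg/ml were 5 after quantile normalization, all higher. Slc7a1 at 10 µg/ml turned to -0.039 over the mean of its probe sets. Between cell types, 1423 probe sets and 13 listed genes differed, 892 and 7 with the stricter filter and 873 probe sets with the brightest per gene, and 936 to 2113 probe sets and 10 to 18 listed genes when each array was left out, 936 without untreated neurons and 2113 without astrocytes at 100 µg/ml. Dose as a replicate block over the 6 arrays at shared doses gave 1871 probe sets and 17 listed genes, and the labels carry no replicate numbers that pair arrays. Calls of Akr1b1, Adh5 and Calm2 were lost under some of these, in the same direction. Other causes of these shifts were not tested. With 1 array per dose and 23.3% to 27.2% of probe sets at the floor, changes of dim probe sets are the least certain.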
